A study of Rattus norvegicus with 2 samples.

Results

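G protein-coupled receptor (GPCR) genes of the orphan, adhesion, lysolipid, purinergic and endothelin groups were compared between rat oligodendrocyte precursor cells (OPCs) electroporated with siHsc70, a small interfering RNA that targets Hsc70, and OPCs electroporated with siSCR, a scrambled one. The members were all rows whose symbol begins with Gpr and a digit, Adgr, Lpar, S1pr, P2ry, Ednra, Ednrb or Gprc5, with Gpr17 left out. The rule itself uses no measured value, but it was set with earlier results of these data known. This gave 106 of the 18049 genes of the table: 21 adhesion receptors, 11 lysolipid receptors, 8 purinergic receptors, 2 endothelin receptors, 4 Gprc5 genes and 60 numbered Gpr genes. Both groups were wild type cells panned from the cortex of newborn pups and then differentiated in medium with 60 nM T3 and without PDGF-AA, bFGF and NT3. The medium of both groups also held forskolin, which activates adenylyl cyclase, the enzyme that many of these receptors act on. They were taken on day 2 of T3 and are called immature oligodendrocytes in the submitters' design. Hsc70 is a constitutive HSP70 chaperone encoded by Hspa8, and the labels give its siRNA as 19 bases, shown because it is the agent that separates the libraries: tcatgactgtcctcatcaa. There was 1 library per group, so no test between the groups was possible, and whether a difference exceeds the spread between cultures cannot be said.

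GPCRs are heptahelical membrane proteins that pass extracellular signals to heterotrimeric G proteins, and these in turn set the levels of cyclic AMP and calcium. Adhesion GPCRs have long extracellular regions that bind matrix or neighbouring cells and, in most members, are cleaved next to the membrane to free a tethered agonist. Lysophosphatidic acid (LPA) and sphingosine 1-phosphate (S1P) act through the Lpar and S1pr genes' products, and ATP, ADP, UTP and UDP act through the P2Y receptors. In the oligodendrocyte lineage of rodents, GPR37 restrains differentiation, ADGRG1 (GPR56) keeps precursors dividing, and S1P5 is a receptor typical of mature oligodendrocytes.

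The total estimated count was 18130817 in siHsc70 and 19085626 in siSCR, and 3 counts, the upper limit for a gene at 0, equalled 0.167 CPM (counts scaled to a common library total) in siHsc70 and 0.156 CPM in siSCR. The targeted gene Hspa8 was at 507 CPM in siHsc70 and 1399 CPM in siSCR, which follows the labels. Markers of oligodendrocytes were present in both libraries and lower in siHsc70: of 14 markers that averaged 1 CPM or more, 11 were at least 2-fold lower, and all 15 summed to 3353 CPM in siHsc70 and 10498 CPM in siSCR. The myelin gene Mbp was at 414 CPM in siHsc70 and 1968 CPM in siSCR, and the lineage factor gene Sox10 at 98.9 CPM in siHsc70 and 563 CPM in siSCR. Of the 5 OPC markers, 3 were at least 2-fold lower, with a sum of 1828 CPM in siHsc70 and 2784 CPM in siSCR. In bulk RNA, fewer cells of a type and less of a transcript per cell cannot be told apart. Astrocyte markers were also present (3593 CPM in siHsc70 and 3960 CPM in siSCR over 10 genes), and 2 of them were lower and 1 higher by at least 2-fold. By any amount 7 of the 10 were higher in siHsc70, with a list median of 0.39, though 1 of the 7, Slc1a3, changed sign with the deposited TPM. Gfap, a large part of the sum, was at 667 CPM in siHsc70 and 1416 CPM in siSCR. Of 12 neuronal markers 4 were lower by that size (726 CPM in siHsc70 and 992 CPM in siSCR summed) and 0 higher. Of the 4 measured endothelial markers 1 was lower by that size and 0 higher, and that list summed to 12.2 CPM in siHsc70 and 13.2 CPM in siSCR. Counting differences of any size, 7 of the 12 neuronal markers were lower in siHsc70 and 5 higher, with a list median of -0.39. The measured endothelial markers were split, with 2 lower and 2 higher and a median of 0.17.

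A receptor gene counted as measured when its average over the libraries reached 1 CPM, and 63 of the 106 did. Of these 63, 8 were at least 2-fold lower in siHsc70 and 2 were at least 2-fold higher, where 2-fold means a difference of at least 1 in log2(CPM + 1). That is 12.7% of measured receptor genes lower and 3.17% higher, against 5.14% lower and 2.29% higher among all 13518 measured genes. The higher share was thus close to that of all genes, and the lower share was above it. The lower genes were Gpr37, Gpr155, Gpr85, Gpr20, S1pr5, Gpr62, Adgrb1 and Gpr149, and the higher genes were Gprc5a and P2ry2. Most of the lower ones were thinly expressed: 5 of the 27 receptor genes with a mean of 1 to 10 CPM were called lower (18.5%, against 6.81% of all genes in that range), and 3 of the 36 with a mean of at least 10 CPM (8.33%, against 4.59%). The median difference of the 63 genes was -0.15, with -0.0034 over all measured genes. With the deposited TPM (scaled for transcript length and depth) the receptor median was -0.27 and that of all genes -0.13. On that scale 10 of the 57 receptor genes that averaged 1 TPM or more were lower (6.04% of all such genes were) and 1 was higher (1.54% of all such genes were).

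**Figure D1:**
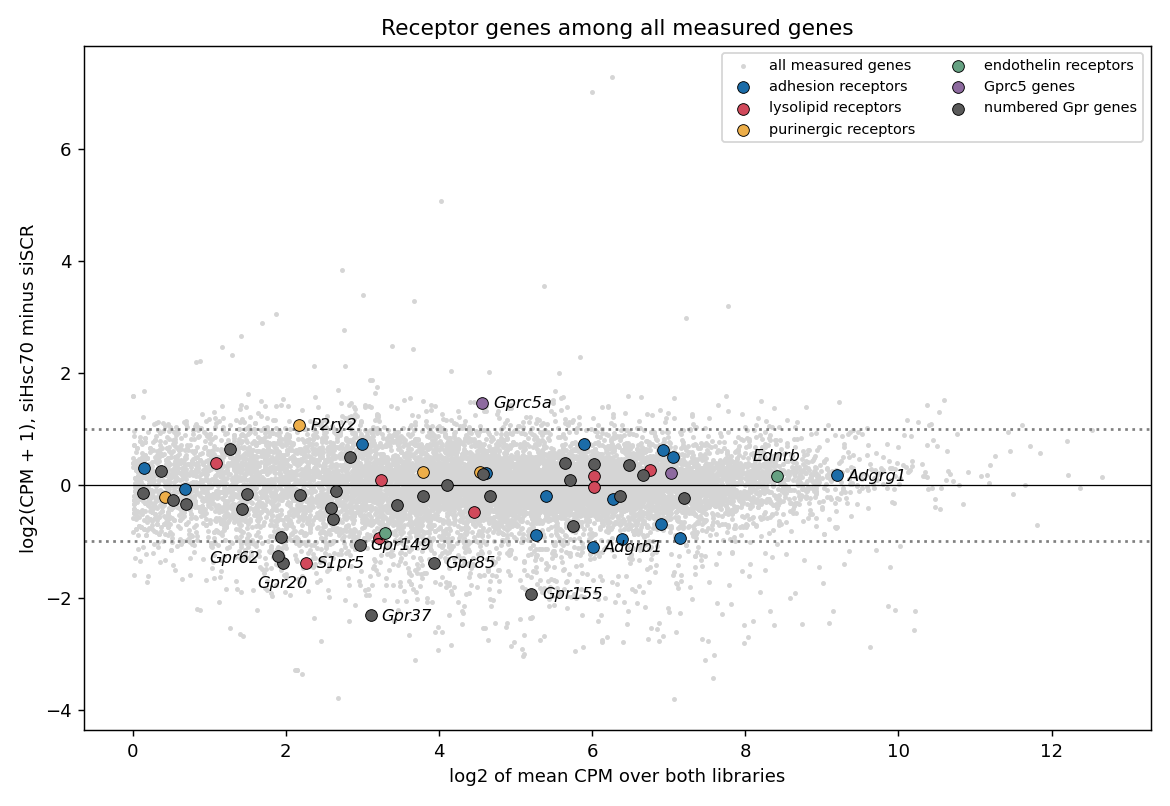
Mean CPM over both libraries on a log2 scale (x axis) and the difference in log2(CPM + 1), siHsc70 minus siSCR (y axis), for all measured genes in grey and the 63 measured receptor genes in colour by class; dotted lines mark a difference of 1 either way. The 8 receptor genes below the lower line and the 2 above the upper line are named, and the most abundant receptor gene, Adgrg1, lies near 0.

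Numbered Gpr genes made up 6 of the 8 lower receptor genes, 6 of the 32 measured in that class (18.8%, against 5.14% of all genes). The largest difference of any measured receptor gene was that of Gpr37, an orphan-type receptor of oligodendrocytes for which the secreted protein prosaposin has been put forward as a ligand. It had 40 counts (1.40 TPM) in siHsc70 and 290 counts (10.4 TPM) in siSCR, which is 6.78-fold lower in siHsc70 (95% counting interval 4.86 to 9.68). The siHsc70 library was thus the low one, and its interval lay wholly past 2-fold. Its relative Gpr37l1, a receptor gene of astrocytes and precursors, was far more abundant and differed little, at 116 TPM in siHsc70 and 149 TPM in siSCR (ratio of siHsc70 to siSCR 0.854, 0.809 to 0.901). Psap, which encodes prosaposin, was at 1223 CPM in siHsc70 and 1028 CPM in siSCR (ratio 1.19).

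Gpr155, whose product is reported in human cells to sense cholesterol at the lysosome, was the next lowest. It had 265 counts (5.82 TPM) in siHsc70 and 1136 counts (25.3 TPM) in siSCR, a 4.01-fold lower level (3.50 to 4.60). It was the most abundant of the 6 lower numbered Gpr genes in siSCR, and no member with a higher mean CPM than it differed as much. Gpr85 belongs to a family of highly conserved brain orphan receptors with Gpr27 and Gpr173. It had 145 counts in siHsc70 and 436 counts in siSCR, 2.81-fold lower (2.32 to 3.42). The other members of that family differed less, with ratios of 0.721 (0.547 to 0.948) for Gpr27 and 0.867 (0.577 to 1.30) for Gpr173, whose interval includes 1.

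The remaining 3 lower numbered Gpr genes were expressed at a few CPM. Gpr20, an orphan receptor gene, had 31 counts in siHsc70 and 117 counts in siSCR, 3.53-fold lower (2.36 to 5.42). Gpr62, an orphan receptor gene that oligodendrocytes express, had 32 counts in siHsc70 and 109 counts in siSCR, 3.18-fold lower (2.13 to 4.88). Gpr62 overlaps Pcbp4 in the RefSeq table, and Pcbp4 was itself at 183 CPM in siHsc70 and 307 CPM in siSCR, so that reads of the overlap may be split uncertainly. Gpr149, also an orphan receptor gene, had 85 counts in siHsc70 and 210 counts in siSCR, 2.31-fold lower (1.79 to 3.01). With the deposited FPKM (scaled for length and depth) neither Gpr62 nor Gpr149 passed the 2-fold rule, with differences of -0.69 and -0.82. Gpr62 was also under the minimum mean on that scale. With the deposited TPM both passed, with differences of -1.04 and -1.09. The summed oligodendrocyte markers were also lower, at 3353 CPM in siHsc70 and 10498 CPM in siSCR. So were the summed OPC, astrocyte, neuronal and endothelial markers, while the fibroblast and mural sum and the microglial sum were higher. The 8 receptor genes were picked for being lower, so a direction shared with any lower sum carries no information. The part of the cell type markers in the result was not tested.

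RefSeq promoter windows (assembly GRCr8, 250 bases before the annotated start) were at hand for 78 of the 106 genes and for 5 of the 10 that passed the 2-fold rule. They were searched on both strands for ACAAAG, a core recognised by SOX factors, for CAGCTG, an E-box form bound by basic helix-loop-helix factors such as OLIG2, and for GAANNTTC, a heat shock element core, none of which overlapped another in the windows printed. These motifs occurred in 16.3%, 12.0% and 7.23% of all 33469 windows, and in 17, 17 and 6 of the 84 windows of receptor genes (20.2%, 20.2% and 7.14%). Of the 5 windows of genes past the 2-fold rule, 0 held the SOX core, 1 held the E-box and 0 held the heat shock core, which says only that these letters are not in those windows. The windows of the most strongly lower gene, of the one with matches and of a higher gene are shown, each on the minus strand, 5′ to 3′, with matches in capitals.
Gpr37 (lower in siHsc70), chr4:55126421-55126670: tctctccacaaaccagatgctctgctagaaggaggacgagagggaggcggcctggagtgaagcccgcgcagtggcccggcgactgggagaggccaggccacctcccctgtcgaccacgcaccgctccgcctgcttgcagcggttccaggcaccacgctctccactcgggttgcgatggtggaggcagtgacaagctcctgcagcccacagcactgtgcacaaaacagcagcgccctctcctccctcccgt
Gpr62 (lower in siHsc70), chr8:115984023-115984272: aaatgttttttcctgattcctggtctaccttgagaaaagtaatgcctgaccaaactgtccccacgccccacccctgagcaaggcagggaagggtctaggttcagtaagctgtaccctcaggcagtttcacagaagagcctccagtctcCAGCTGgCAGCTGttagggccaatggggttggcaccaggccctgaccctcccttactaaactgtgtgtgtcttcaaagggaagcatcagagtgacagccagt
P2ry2 (higher in siHsc70), chr1:164779489-164779738: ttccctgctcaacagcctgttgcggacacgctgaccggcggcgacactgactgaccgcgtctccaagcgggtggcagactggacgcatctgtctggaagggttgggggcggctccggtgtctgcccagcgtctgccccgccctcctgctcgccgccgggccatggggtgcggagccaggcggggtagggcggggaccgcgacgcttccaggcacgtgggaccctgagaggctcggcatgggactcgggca
The Gpr62 window held 2 adjacent E-boxes, at 102 to 97 and 95 to 90 bases before the start. Its content of G and C was 53.2%, near the median of all windows (51.2%), while the windows of Gpr37, Gpr155, S1pr5 and P2ry2 were at 66% to 71.2%.

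**Figure D2:**
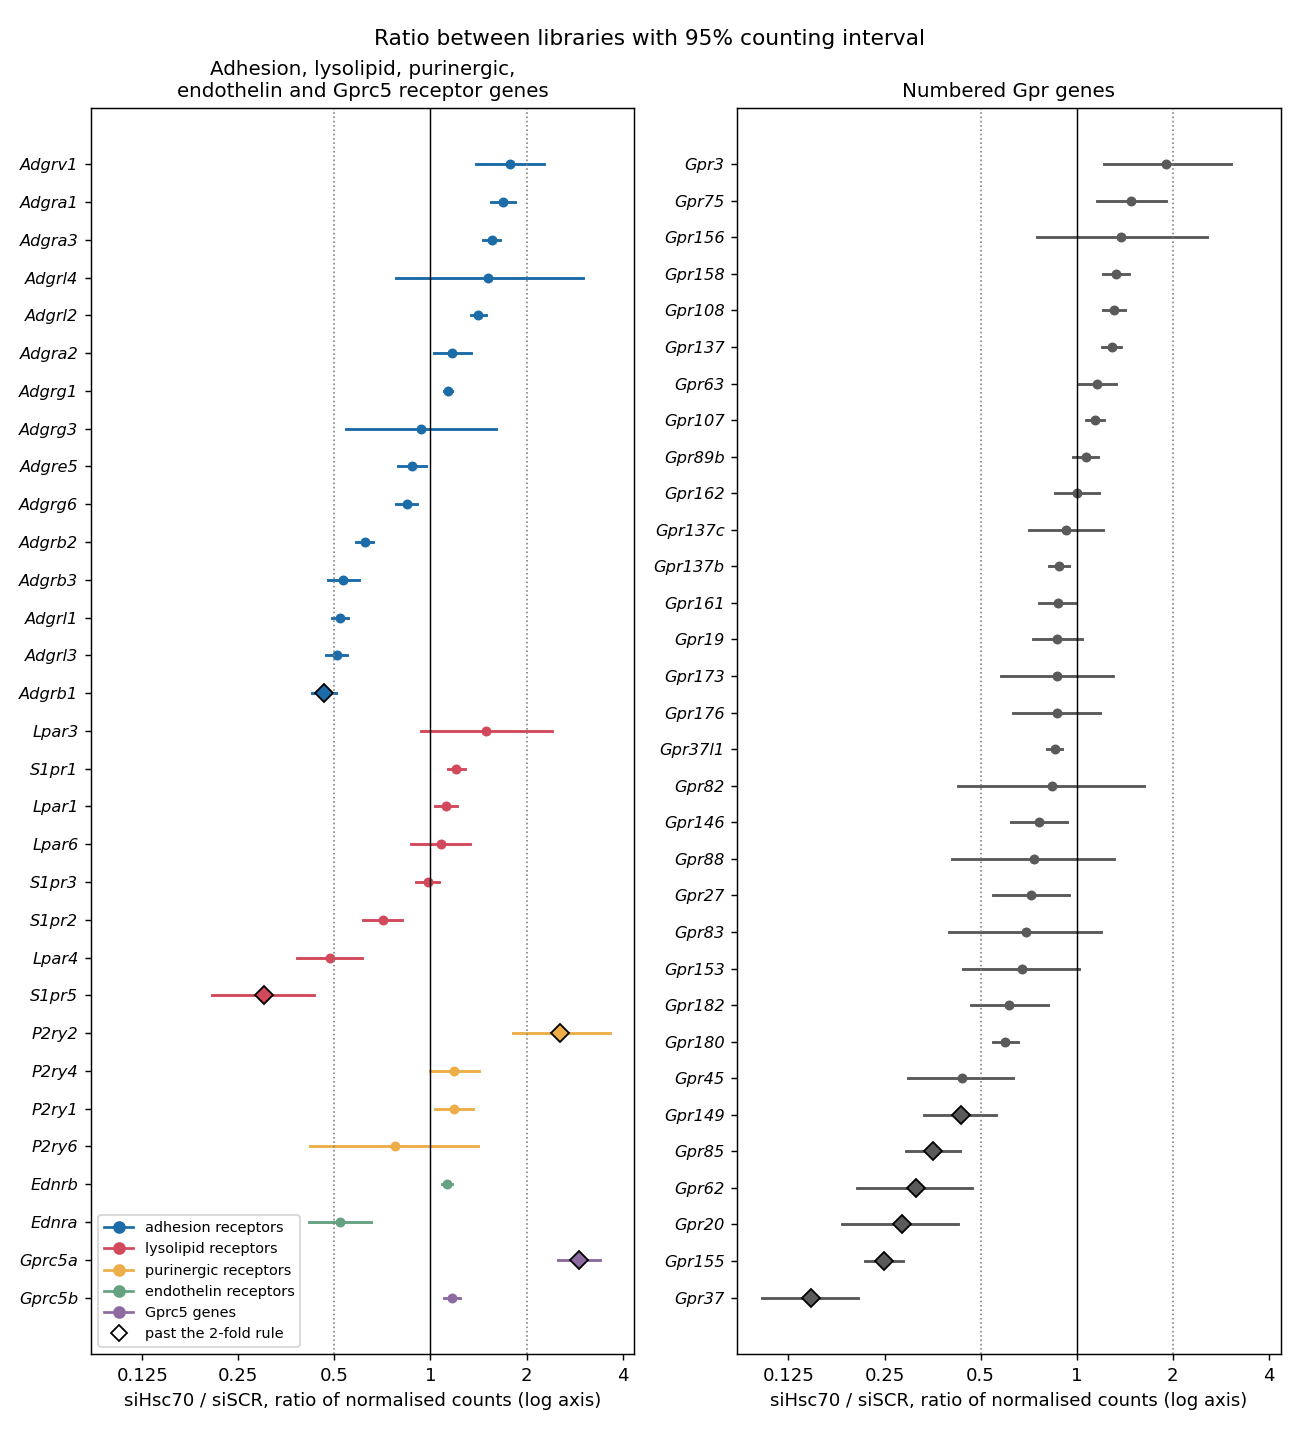
Ratio of normalised counts, siHsc70 over siSCR (x axis, log scale), for each of the 63 measured receptor genes, with exact 95% counting intervals as bars; diamonds mark genes past the 2-fold rule, which adds 1 CPM to each value, so that Gpr45 and Lpar4 lie past a ratio of 0.5 without passing it. The intervals of Gpr37, Gpr155, Gpr85, Gpr20, Gpr62 and S1pr5 lie wholly below 0.5, and that of Gprc5a wholly above 2.

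The other 26 measured numbered Gpr genes were within 2-fold. Gpr45, an orphan receptor gene, was just short of the rule, with 42 counts in siHsc70 and 103 counts in siSCR (difference -0.93, 2.29-fold lower without the pseudocount, 1.59 to 3.36). Gpr180 was at 28.6 TPM in siHsc70 and 47.8 TPM in siSCR (1.67-fold lower, 1.53 to 1.83), and Gpr182, encoding a scavenging receptor for chemokines, at 2.64 TPM in siHsc70 and 4.72 TPM in siSCR (ratio 0.616, 0.465 to 0.811). In the other direction, Gpr3, whose product raises cyclic AMP without an added ligand, had 57 counts in siHsc70 and 32 counts in siSCR (ratio 1.91, 1.22 to 3.04). Gpr158, encoding a class C receptor reported to bind glycine, was at 15.2 TPM in siHsc70 and 12.6 TPM in siSCR (ratio 1.33, 1.21 to 1.46). Gpr161, encoding a ciliary receptor that restrains Hedgehog signalling, was at 6.83 TPM in siHsc70 and 8.66 TPM in siSCR (ratio 0.871, 0.765 to 0.992).

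Several numbered Gpr genes encode organelle proteins rather than surface receptors. Gpr137, encoding a lysosomal protein, was among the most abundant numbered Gpr genes, at 119 TPM in siHsc70 and 102 TPM in siSCR (ratio 1.29, 1.20 to 1.38). Gpr108 and Gpr107, encoding related Golgi proteins, had ratios of 1.31 (1.21 to 1.42) and 1.14 (1.07 to 1.22). Gpr89b, encoding a Golgi pH regulator, was at 59.2 TPM in siHsc70 and 61.1 TPM in siSCR. Its ratio of normalised counts was 1.07 (0.977 to 1.17), so its direction depended on the scaling and its interval included 1.

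Adhesion receptor genes are described by subfamily, and a difference between subfamilies was not tested. Of the 15 measured, 1 was at least 2-fold lower (6.67%, against 5.14% of all genes) and 0 were at least 2-fold higher (against 2.29%). By any amount 8 were lower and 7 higher, and 50.3% of all measured genes were lower by any amount. All 3 genes of the Adgrb subfamily, the brain-specific angiogenesis inhibitors, were lower in siHsc70 by some amount under every scaling run. Only 1 of the 3 was at least 2-fold lower (33.3%, against 5.14% of all genes). Adgrb1, encoding a receptor for phosphatidylserine on dying cells, had 736 counts in siHsc70 and 1701 counts in siSCR, 2.16-fold lower (1.98 to 2.36). Adgrb1 and the lower Gpr149 also overlap other RefSeq genes, for which no values were used here. Adgrb3 had 484 counts in siHsc70 and 971 counts in siSCR (1.88-fold lower, 1.68 to 2.10), and Adgrb2 had 1648 counts in siHsc70 and 2837 counts in siSCR (1.61-fold lower, 1.51 to 1.71). C1ql1, encoding a secreted ligand of ADGRB3, was lower still, at 23.0 CPM in siHsc70 and 93.0 CPM in siSCR (4.04-fold lower, 3.63 to 4.51).

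Latrophilin genes went both ways. Adgrl1 was at 33.6 TPM in siHsc70 and 71.0 TPM in siSCR (1.92-fold lower, 1.81 to 2.03), and Adgrl3 at 13.1 TPM in siHsc70 and 29.1 TPM in siSCR (1.97-fold lower, 1.82 to 2.12). Both fell just short of the 2-fold rule and passed it with the deposited TPM, where their differences were -1.06 and -1.10 beside an all-gene median of -0.13. Adgrl2, in contrast, was at 52.1 TPM in siHsc70 and 40.7 TPM in siSCR (ratio 1.41, 1.34 to 1.496), and the endothelial member Adgrl4 had 24 counts in siHsc70 and 17 counts in siSCR, within counting error. Flrt1, encoding a membrane ligand of latrophilins, was 2.38-fold lower (2.08 to 2.74, 16.2 CPM in siHsc70 and 38.7 CPM in siSCR). Flrt2 and Flrt3, named after their values were seen, had ratios of 0.901 (0.795 to 1.02) and 1.24 (1.05 to 1.48). C1ql1 and Flrt1 were the 2 members at least 2-fold lower of the 19 measured ligand genes of adhesion receptors and GPR37 (10.5%, against 5.14% of all genes). In that list 0 were at least 2-fold higher (against 2.29%), and its median was 0.25. By any amount 8 of the 19 were lower and 11 higher.

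All 3 Adgra genes were higher in siHsc70 under every scaling run, by less than 2-fold. Among all measured genes 50.3% were lower by any amount. Adgra1 had 1346 counts in siHsc70 and 853 counts in siSCR (ratio 1.69, 1.55 to 1.84), Adgra3 had 2656 counts in siHsc70 and 1827 counts in siSCR (1.56, 1.46 to 1.65), and Adgra2, a coreceptor of WNT7 signalling in brain vessels, had 476 counts in siHsc70 and 435 counts in siSCR (1.17, 1.03 to 1.34). Adgrv1, encoding a very large receptor of hair cells, was at 1.01 TPM in siHsc70 and 0.63 TPM in siSCR (1.77, 1.39 to 2.27). Adgrg1 was the most abundant receptor gene of the whole set, at 346 TPM in siHsc70 and 335 TPM in siSCR (1.13, 1.10 to 1.17). Adgrg6, needed in Schwann cells for myelination, was at 19.8 TPM in siHsc70 and 26.3 TPM in siSCR (0.842, 0.782 to 0.907). Adgre5 (CD97) had a ratio of 0.874 (0.791 to 0.966), and Adgrg3 (0.936, 0.543 to 1.61) was within counting error.

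Among the 8 measured lysolipid receptor genes, S1pr5 was at least 2-fold lower (12.5%, against 5.14%) and 0 were at least 2-fold higher (against 2.29%). S1pr5 had 40 counts (1.86 TPM) in siHsc70 and 142 counts (7.30 TPM) in siSCR, 3.32-fold lower (2.32 to 4.84). The other measured S1P receptor genes were more abundant in both libraries and differed less. S1pr1 was at 88.2 TPM in siHsc70 and 80.6 TPM in siSCR (ratio 1.20, 1.13 to 1.28), and S1pr2 at 12.9 TPM in siHsc70 and 20.1 TPM in siSCR (0.708, 0.614 to 0.816). S1pr3 was at 34.5 TPM in siHsc70 and 38.7 TPM in siSCR, with a ratio of normalised counts of 0.979 (0.903 to 1.06) whose side of 1 changed with the scaling. Lpar1, the main LPA receptor gene of oligodendrocytes, was at 39.3 TPM in siHsc70 and 39.0 TPM in siSCR (ratio of normalised counts 1.12, 1.03 to 1.21). Lpar4, whose product can raise cyclic AMP, had 109 counts in siHsc70 and 241 counts in siSCR (2.07-fold lower, 1.64 to 2.62), and its difference of -0.94 on the scale with the pseudocount was just short of the rule. Lpar6 and Lpar3 were within counting error, and the direction of Lpar6 changed with the scaling.

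Of 16 measured genes of lysolipid synthesis, breakdown and export, 4 were at least 2-fold lower (25%, against 5.14% of all genes) and 1 was at least 2-fold higher (6.25%, against 2.29%), with a list median of -0.084. Enpp2, encoding autotaxin, the secreted enzyme that makes LPA, was at 31.2 CPM in siHsc70 and 187 CPM in siSCR (5.98-fold lower, 5.47 to 6.55). Spns2, encoding the exporter of S1P, was at 4.95 CPM in siHsc70 and 20.4 CPM in siSCR (4.13-fold lower, 3.27 to 5.26). Plppr5, of the lipid phosphatase-related family, was at 43.6 CPM in siHsc70 and 213 CPM in siSCR (4.88-fold lower, 4.52 to 5.28). The remaining lower gene, Plppr3 of the same family, was named because of its value in this count, at 3.95 CPM in siHsc70 and 10.1 CPM in siSCR. Plpp2, encoding a lipid phosphate phosphatase, was the higher one, at 5.23 CPM in siHsc70 and 2.08 CPM in siSCR (ratio 2.51, 1.72 to 3.74), and with the deposited TPM its difference of 0.96 was under the rule.

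Of the 4 measured purinergic receptor genes, P2ry2, encoding a receptor for ATP and UTP, was at least 2-fold higher (25%, against 2.29%) and 0 were at least 2-fold lower (against 5.14%). P2ry2 had 117 counts (6.33 TPM) in siHsc70 and 49 counts (2.76 TPM) in siSCR, a ratio of 2.55 (1.82 to 3.64). With the deposited TPM its difference was 0.96 and with the deposited FPKM 0.89, both under the 2-fold rule. P2ry2 overlaps Fchsd2 in the RefSeq table, and Fchsd2 went the other way, at 56.2 CPM in siHsc70 and 121 CPM in siSCR. P2ry1, the ADP receptor gene, was the most abundant purinergic one at 15.4 TPM in siHsc70 and 14.3 TPM in siSCR (ratio 1.18, 1.03 to 1.36). P2ry4 (UTP) had a ratio of 1.19 (0.996 to 1.42) and P2ry6 (UDP), the neighbour of P2ry2 among the protein-coding genes of chromosome 1, one of 0.775 (0.42 to 1.41), both within counting error. Of 13 measured genes of extracellular nucleotide turnover and of other purine receptors, 0 were past 2-fold in either direction, and the one furthest from 0 was the channel gene Panx2, at 12.3 CPM in siHsc70 and 5.98 CPM in siSCR (difference 0.93).

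The endothelin receptor genes differed from each other in level and in ratio. Ednrb was at 162 TPM in siHsc70 and 161 TPM in siSCR (ratio of normalised counts 1.13, 1.09 to 1.17), below Adgrg1 and Gprc5b alone among the receptor genes. Ednra was at 2.84 TPM in siHsc70 and 5.97 TPM in siSCR (1.92-fold lower, 1.54 to 2.40), with a difference of -0.85 that was short of the rule. Of 6 genes of endothelin ligands and processing, 2 were measured, Ece1 and Ece2, encoding converting enzymes, and 0 of them passed 2-fold, with Ece2 furthest from 0 at 13.1 CPM in siHsc70 and 9.56 CPM in siSCR. The ligand gene Edn1 was under the minimum, at 0.556 CPM in siHsc70 and 0.364 CPM in siSCR.

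Gprc5a had the largest difference upward of any measured receptor gene. It is an orphan class C receptor gene first described as induced by retinoic acid, and it had 634 counts (33.3 TPM) in siHsc70 and 233 counts (12.6 TPM) in siSCR, a ratio of 2.91 (2.50 to 3.40). Its relative Gprc5b was far more abundant and differed little, at 169 TPM in siHsc70 and 162 TPM in siSCR (ratio 1.17, 1.10 to 1.23). Gprc5c and Gprc5d were under the minimum, with 20 and 1 counts in siHsc70 and 13 and 1 counts in siSCR. Of the 5 measured fibroblast and mural markers 2 were at least 2-fold higher in siHsc70 and 3 were within 2-fold. By any amount 4 were higher and 1, Col3a1, was lower (ratio 0.802, 0.495 to 1.29), with a list median of 0.88. The list of 10 genes summed to 108 CPM in siHsc70 and 44.0 CPM in siSCR, of which Col1a1 alone held 73.8 CPM in siHsc70 and 24.3 CPM in siSCR, and the part of these markers in the values of Gprc5a and P2ry2 was not tested.

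**Figure D3:**
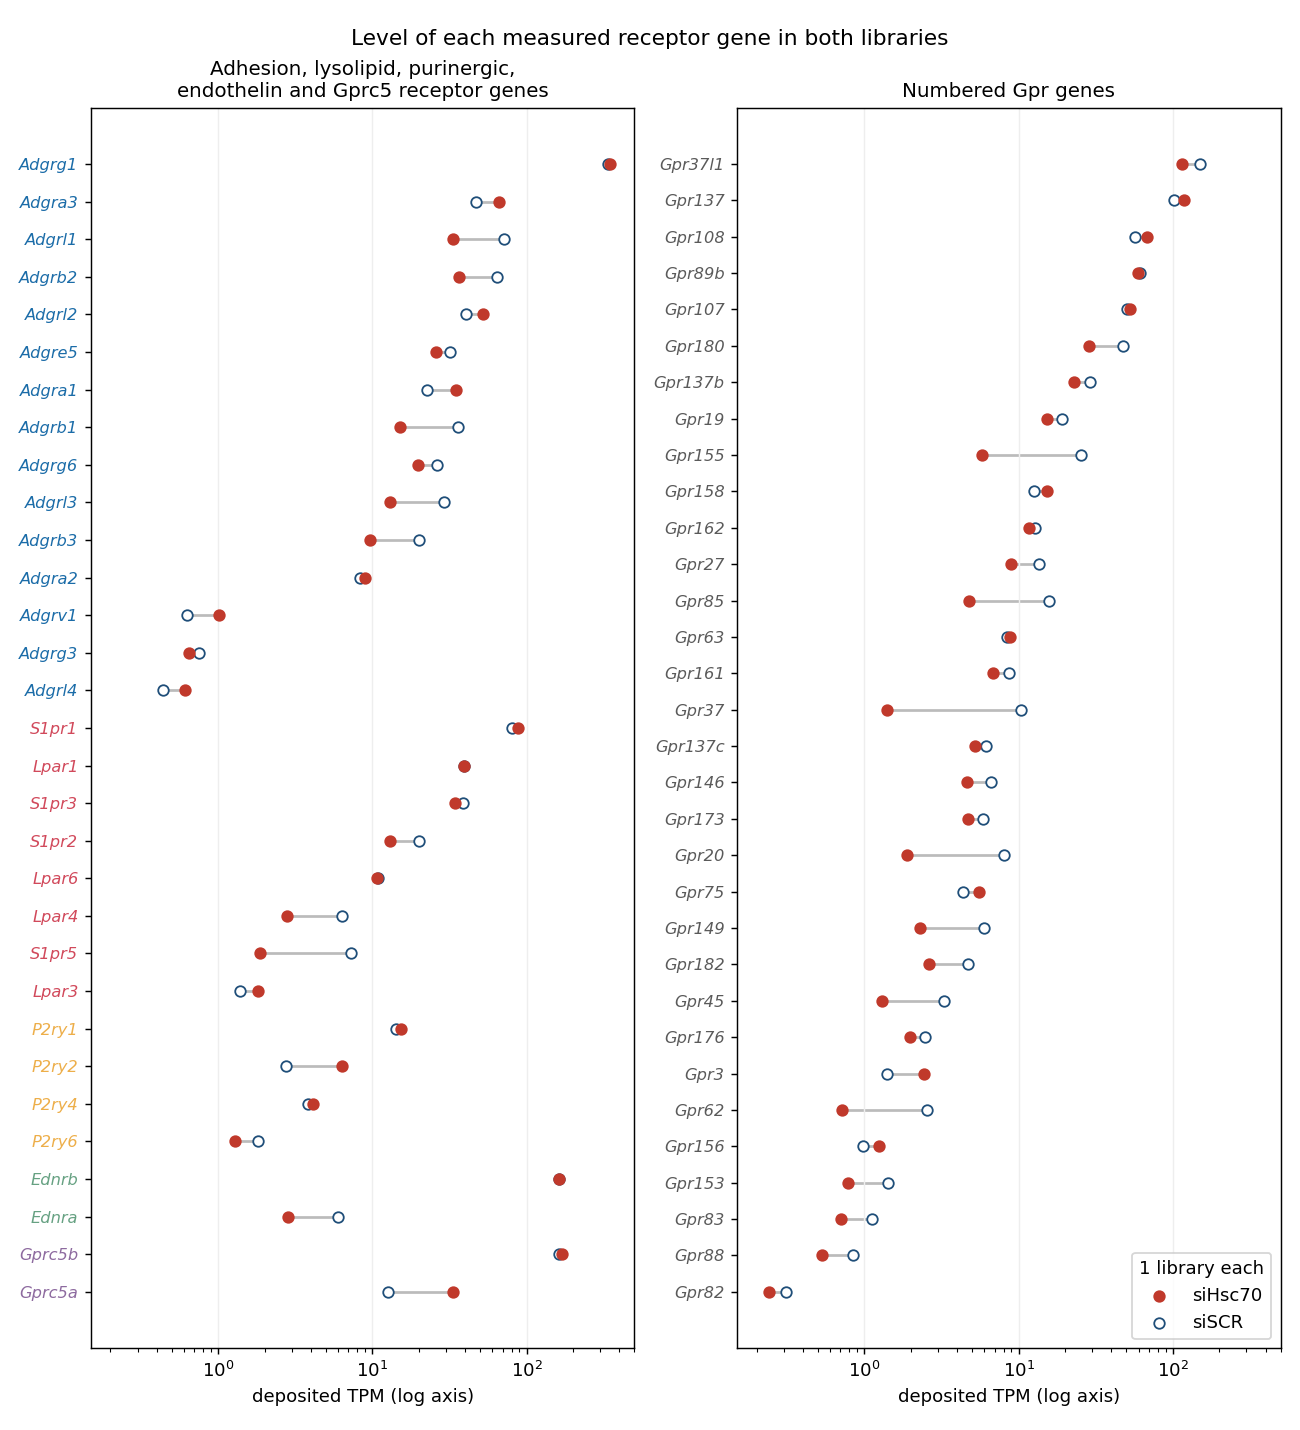
Deposited TPM on a log axis for each of the 63 measured receptor genes in siHsc70 (filled) and siSCR (open), 1 library each, ordered by level within each class. The top of the order is much the same in both libraries, with Adgrg1 highest at 346 TPM in siHsc70 and 335 TPM in siSCR, while Gpr37, Gpr155, Gpr20 and S1pr5 show the widest gaps.

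Per length, the receptor repertoire was led by the same few genes in both libraries. The 10 highest receptor genes held 67.8% of the summed receptor TPM in siHsc70 (1838 TPM in all) and 62.5% of it in siSCR (1991 TPM in all), and 8 of the 10 were shared. Adgrg1, Gprc5b and Ednrb held ranks 1, 2 and 3 in both libraries, and Adgrg1 alone held 18.8% of the sum in siHsc70 and 16.8% in siSCR. Gpr137 and Gpr37l1 held ranks 4 and 5 in siHsc70 and ranks 5 and 4 in siSCR, and S1pr1 held rank 6 in both. None of the 10 genes past the 2-fold rule was among the 10 highest in either library.

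Downstream of the receptors, 0 to 2 genes of each signalling list passed 2-fold in either direction, beside 5.14% lower and 2.29% higher among all genes. Of 24 measured G protein subunit genes 1 was lower and 1 higher (4.17% each), with a median of -0.19. Gng7, encoding a gamma subunit coupled to adenylyl cyclase, was at 1.56 CPM in siHsc70 and 4.73 CPM in siSCR (3.04-fold lower, 1.97 to 4.82), and the gamma subunit gene Gng3 was at 106 CPM in siHsc70 and 49.8 CPM in siSCR (ratio 2.13, 1.97 to 2.30), or a difference of 0.94 with the deposited TPM. The abundant alpha subunit genes Gnas and Gnai2 had ratios of 1.16 and 1.17, named after their values were seen. Of 24 measured genes of cyclic AMP, phospholipase C and related effectors 2 were lower (8.33%), both adenylyl cyclases, and 0 were higher. Adcy1 was at 7.01 CPM in siHsc70 and 20.4 CPM in siSCR (2.91-fold lower, 2.37 to 3.58), and Adcy5 was at 8.06 CPM in siHsc70 and 19.3 CPM in siSCR (2.39-fold lower, 1.97 to 2.92). With the deposited FPKM, Gng7, Adcy1, Adcy5 and Flrt1 no longer passed the rule, with differences of -0.72, -0.80, -0.91 and -0.89. With the deposited TPM these genes did pass it, with differences of -1.06, -1.12, -1.17 and -1.15. Of 22 measured receptor kinase, arrestin and RGS genes, Rgs2, encoding a regulator that shortens Gq signals, was the 1 past 2-fold (4.55%), at 7.23 CPM in siHsc70 and 16.5 CPM in siSCR (2.29-fold lower, 1.86 to 2.83).

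**Figure D4:**
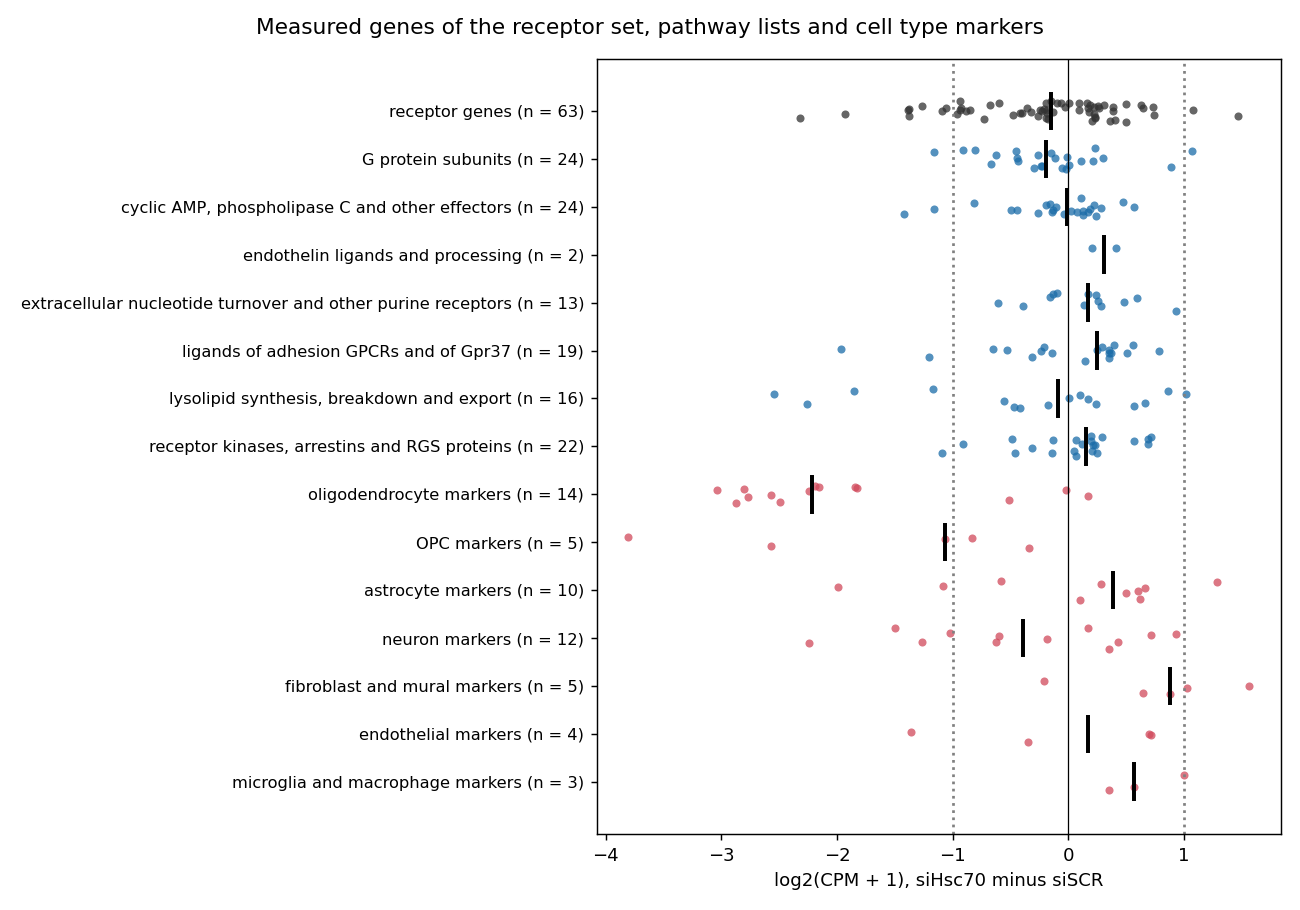
Difference in log2(CPM + 1), siHsc70 minus siSCR (x axis), of each measured gene in the receptor set (black), in the 7 pathway lists (blue) and in the 7 cell type marker lists (red), with the list's median as a bar and dotted lines at a difference of 1 either way. The receptor median lies at -0.15 and the oligodendrocyte marker median at -2.22.

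The other 43 receptor genes were below the minimum, with a highest mean of 0.92 CPM and at most 20 counts in a library. Of them 25 had at most 3 counts in both libraries, 4 were at 0 in siHsc70 and 9 were at 0 in siSCR, and in 0 of the 43 did the counting interval of the ratio exclude 1. They included several receptors that are typical of microglia and other immune cells. P2ry12, the ADP receptor gene of microglia, had 5 counts in siHsc70 and 15 counts in siSCR, a ratio of 0.357 (0.101 to 1.03). P2ry13 had 2 counts in each library, Gpr34 had 1 count in each, and Adgre1, the F4/80 gene, had 1 count in siHsc70 and 4 in siSCR. Gpr84 had 2 counts and Gpr183 1 count in siHsc70, and both were at 0 in siSCR. Of the separate microglial markers 3 were measured, among them Tmem119 at 5.50 CPM in siHsc70 and 3.38 CPM in siSCR and Cd68 at 4.34 CPM in siHsc70 and 1.66 CPM in siSCR. The other 7 markers of that list found in the table were below the minimum and went both ways. Csf1r had 2 counts in siHsc70 and 8 in siSCR, Ptprc had 2 in siHsc70 and 4 in siSCR, and Trem2 had 1 in each. Aif1, C1qc and Tyrobp had 1 count each and Fcgr3a 2 counts in siHsc70, and these 4 were at 0 in siSCR.

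Receptor genes that sit side by side in the genome were not alike in level in every case. In the RefSeq order of protein-coding genes, 21 members stood in 9 runs of direct neighbours. Adgrg1 and Adgrg3 are neighbours on chromosome 19 at 346 and 0.65 TPM in siHsc70 and at 335 and 0.75 TPM in siSCR. Gprc5a and Gprc5d are neighbours on chromosome 4, and of these Gprc5d had 1 count in each library. Lpar4, lower in siHsc70, lies next to P2ry10 on the X chromosome, which had 2 counts in siHsc70 and 0 in siSCR.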

How the data were processed

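One deposited table of the series was used, with 1 library per group, and columns were assigned by the siRNA they are named for. It holds estimated counts, FPKM and TPM per gene, per the file headers. The submitters' processing notes name the build mm39, whereas all 106 member gene IDs were found in the rat RefSeq table (GRCr8), 105 with the same symbol. Gpr112l is listed there as Adgrg4 and was kept among the numbered Gpr genes. Coordinates printed with promoter windows, and chromosomes of neighbouring genes, are those of GRCr8 and not of the deposited table. No source used here gives the aligner, quantification program or strand setting, so reads of overlapping genes may be split uncertainly, as they can be for 22 measured members that overlap another RefSeq gene, 9 of them one that has a row in the table.

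Estimated counts were rounded and scaled to CPM by edgeR 4.0.16 (R 4.3.3) with TMM factors (0.992 for siHsc70, 1.01 for siSCR). Differences are log2(CPM + 1), siHsc70 minus siSCR, which understates low genes. Ratios carry 95% exact Clopper-Pearson intervals from both libraries' reads (scipy 1.17.1). Intervals and floors cover counting error only, and PCR copies are not independent molecules. With no replicates there is no test and no p-value. The procedure was tested on simulated data. Named genes were all members past 2-fold, the 2 highest per class by TPM, and up to 3 lower and 3 higher genes per pathway list. Other measured members were named as that rule allows. Members, lists and rule were chosen with earlier results of these data known. Some items are not reported here. The 11 alternatives covered the pseudocount, minimum mean, scaling, unit and size rule.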

Additional observations from a re-analysis of the deposited data

How the results depend on the processing

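With a minimum mean of 5 CPM, 5 of 46 measured receptor genes were lower and 1 higher (4.83% and 1.98% of all genes), since Gpr20, Gpr62, S1pr5 and P2ry2 fall under that minimum. A 1.5-fold rule gave 17 lower and 6 higher receptor genes, against 1626 and 1304 of all measured genes (12% and 9.65%). The deposited TPM and the deposited FPKM each left 1 higher receptor gene, Gprc5a. Of the 8 lower genes, 6 were called lower with the deposited FPKM (of 51 measured receptor genes, with 4.09% of all genes lower and 1.63% higher), and all 8 under each of the other 9 settings. Among all genes, the count of higher genes, 310 in the main analysis, was 518 when 0.1 CPM was added and 203 on the FPKM scale. The receptor median stayed below 0 under the settings run, from -0.27 to -0.013. Of the 10 called receptor genes 0 changed sign, whereas 4 of the 63 measured ones did with the scaling (Lpar6, S1pr3, Gpr162 and Gpr89b). Single-gene differences moved by more than their counting error 26 times over 10 settings, 20 of them with the deposited TPM, 4 with the deposited FPKM and 2 with upper-quartile scaling. No paired analysis was possible because each group has 1 library. Depth limits the 43 genes below 1 CPM, for which no difference was detectable.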
